A study of Rattus norvegicus with 12 samples.

Results

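The 29 genes described here carry out the synthesis, uptake, movement, export and storage of cholesterol in rat cells. They were taken from the count table by gene symbol, and all 29 were found among its 30454 genes and passed the filter on low counts that left 13692 genes for testing. The cells carry the label PC12, a rat line derived from a chromaffin tumour of the adrenal medulla. Expression was measured by sequencing 12 libraries, 4 in each of 3 groups, although the series text calls the assay a microarray. All cells had passed through oxygen-glucose deprivation and reoxygenation (OGDR), a culture model of ischaemia and reperfusion. The rTMS-MSCs group had mesenchymal stem cells (MSCs) and 10 Hz repetitive transcranial magnetic stimulation (rTMS), the MSCs group had the stem cells alone, and the OGDR group had neither. Every library was taken 48 h after treatment. The labels give no strain of stem cell, no way of contact between the stem cells and the PC12 cells, and no group without deprivation. Whether the libraries of a group came from separate cultures is also left unstated, so p-values measure the spread between these samples, which may be technical.

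Cholesterol is built from acetyl-CoA by way of mevalonate, farnesyl diphosphate, squalene and lanosterol, each step with its own enzyme. The transcription factor SREBP2, the product of Srebf2, switches on the genes of nearly all these enzymes. SCAP carries SREBP2 out of the endoplasmic reticulum when sterols are scarce, and INSIG1 and INSIG2 hold the pair back when sterols are plentiful. Sterol-laden cells instead activate liver X receptors, of which Nr1h2 encodes the beta form, and these switch on the exporters Abca1 and Abcg1. Cells of the nervous system make most of their own cholesterol, and glia use large amounts of it for myelin.

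SREBP2 is known to act with the factor NF-Y, whose box reads CCAAT, or from the other strand ATTGG, so the promoters of the members were searched for it. RefSeq's promoter table for the rat build GRCr8, which spans 250 bases before to 50 after each gene's start, held an entry for 24 of the 29 members. Pmvk, Fdft1, Sqle, Stard4 and Abcg1 had no entry in the table. CCAAT was found on either strand in 17 of the 24 member promoters (70.8%), against 37.5% of all 33469 promoters of the same length. Members without it in this window were Abca1, Acat2, Cyp51, Dhcr7, Npc1, Nr1h2 and Scap. The core letters TCACNCCAC of a sterol regulatory element, searched on both strands, were in 0 of the 24 and in 1.12% of all promoters. These matches describe letters and were not tested as sites. Stretches of 5 members that the results below turn on are shown 5′ to 3′ with these boxes in capitals.
Hmgcs1 at chr2:53382086-53382205 on the plus strand: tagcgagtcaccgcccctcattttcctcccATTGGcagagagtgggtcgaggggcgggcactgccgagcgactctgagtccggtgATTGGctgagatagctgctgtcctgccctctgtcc
Idi1 at chr17:66547525-66547620 on the minus strand: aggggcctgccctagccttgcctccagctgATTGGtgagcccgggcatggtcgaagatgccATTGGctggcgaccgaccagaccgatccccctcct
Msmo1 at chr16:29746910-29747079 on the plus strand: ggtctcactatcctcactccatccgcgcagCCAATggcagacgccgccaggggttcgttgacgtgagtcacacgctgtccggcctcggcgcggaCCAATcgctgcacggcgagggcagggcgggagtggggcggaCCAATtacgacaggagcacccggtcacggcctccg
Insig1 at chr4:8057928-8057992 on the minus strand: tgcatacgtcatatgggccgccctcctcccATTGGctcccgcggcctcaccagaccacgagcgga
Npc2 at chr6:110149373-110149495 on the minus strand: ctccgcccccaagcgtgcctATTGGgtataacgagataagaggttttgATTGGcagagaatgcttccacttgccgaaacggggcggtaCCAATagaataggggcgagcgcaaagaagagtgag
Idi1, Msmo1 and Insig1 were lower in both stem cell groups than in OGDR, Hmgcs1 was lowest in rTMS-MSCs, and Npc2 was higher in rTMS-MSCs than in both other groups. These 5 were picked from promoters with a box and each stretch was cut around its boxes, so the boxes in them are a display and not a result. Cyp51, Npc1 and Abca1, which also changed, are among the members without one.

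Each library held 18246250 to 20471838 counts in genes and 16707 to 16964 detected genes. The lowest mean of any member in any group was 9.94 CPM, the count scaled to the same TMM-adjusted library total, for Insig2. Libraries rTMS-MSCs 3 and MSCs 3 stood apart at opposite ends of the second principal component (18.1% of variance), at 32.4 and -30.8. The other libraries of these groups lay between -21.0 and 9.59. In rTMS-MSCs 3, 13 members were below and 10 above the range of the other 3 libraries of its group, 79.3% of members against 69.1% of all tested genes. Abca1 stood in it at 0.559 times the mean of the other 3 libraries, Lss at 0.782, Mvd at 1.25 and Pmvk at 1.29. MSCs 3 had 51.7% of members outside the range of its group, against 55.9% of all genes, and MSCs 2 had 75.9% of members outside, against 53.8% of all genes. Because of their place on the second component, each comparison is also given without rTMS-MSCs 3 and MSCs 3. This choice was made after the data were seen. The share of members outside the range did not set MSCs 3 apart, and MSCs 2, which stood out more by it, was kept. The 2 groups also lay apart on that component, at -0.959 to 32.4 in rTMS-MSCs and -30.8 to -10.3 in MSCs. The 2 libraries left out are the outermost in that direction, so their removal draws these groups together, with 3 libraries left in each.

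The labelled cell type was checked against its markers. Of 13 chromaffin markers, Ddc and Scg3 had no count in any library, and 5 of the 13 were under 1 CPM in every library. Th, the first enzyme of catecholamine synthesis, averaged 0.614 CPM in rTMS-MSCs, 0.673 in MSCs and 0.151 in OGDR. The glial factor Sox10 averaged 404 CPM in rTMS-MSCs, 424 in MSCs and 362 in OGDR. Sums of the 13 chromaffin markers, of which Scg2 made up most, were 212 to 228 CPM in rTMS-MSCs, 202 to 247 in MSCs and 283 to 352 in OGDR. Sums of 10 Schwann cell and glial markers were 1071 to 1178 CPM in rTMS-MSCs, 1096.5 to 1167 in MSCs and 935 to 1016 in OGDR. Stromal markers, 10 in all and with Lum at 0, summed to 281 to 359 CPM in rTMS-MSCs, 368 to 391 in MSCs and 342 to 358 in OGDR. Macrophage markers, 8 in all and with Adgre1 at 0, summed to 64.4 to 78.1 CPM in rTMS-MSCs, 51.4 to 66.8 in MSCs and 51.9 to 59.9 in OGDR. Cd14 made up most of that sum, and 6 of the 8 were under 1 CPM in every library. The chromaffin and glial sums thus separated the stem cell groups from OGDR without overlap, as did some members below, among them Idi1 and Cyp51. The share of all tested genes that separate in this way is not given here. What part these sums have in the results below was not tested. The chromaffin split was that of Scg2, at 207 CPM in rTMS-MSCs, 203 in MSCs and 293 in OGDR. Other chromaffin markers went both ways, Th and Cyb561 averaging higher and Dbh lower in both stem cell groups than in OGDR. Of the glial markers, Cdh19 averaged lower in both stem cell groups, against its sum. Erbb3 averaged 114 CPM in rTMS-MSCs, 167 in MSCs and 144 in OGDR, so it was lower than OGDR in rTMS-MSCs only. In bulk samples fewer cells of a type and less RNA per cell cannot be told apart.

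With stem cells alone, 8 of the 18 enzymes of cholesterol synthesis were lower than in untreated OGDR cells and 10 did not pass the test. In MSCs against OGDR, 9 of the 29 members fell and 1 rose, by the edgeR quasi-likelihood test with an adjusted p under 0.05 over all 13692 genes. These are 31.0% of members lower, against 8.63% of all genes tested, while 11.6% of all genes were called higher. The median log2 fold change was -0.16 over the members and -0.00 over all genes, and 22 of the 29 values were negative. The 8 lower enzymes ran from Mvd at -0.32 to Acat2 at -0.15, and none of the 18 rose. Among the other 11 members Insig1 fell and the storage enzyme gene Soat1 rose. Without rTMS-MSCs 3 and MSCs 3 there were 13 members lower and 1 higher, with Hmgcs1, Sc5d, Npc1 and Abca1 added. Over all 13808 genes tested in that fit, 1385 were lower and 1751 higher, against 1181 and 1582 with all libraries.

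With stimulation on top of stem cells the called genes were few among the enzymes, of which 1 of 18 rose and 2 fell. Of the other 11 members 1 rose and 3 fell. In rTMS-MSCs against MSCs, Hmgcs1, Lss, Stard4, Npc1 and Abca1 fell, and Acat2 and Npc2 rose. The 5 lower members are 17.2% of the 29, against 10.9% of all genes, and the background for higher genes was 7.14%. The median log2 fold change was -0.01 over the members and 0.02 over all genes. All but Acat2 of these 7 calls were lost without rTMS-MSCs 3 and MSCs 3, which left 1 member higher and 0 lower. Over all genes 154 were then higher and 523 lower, against 977 and 1498 with all libraries. These 2 libraries are the outermost of their groups along the split between them, so losses follow in part from that choice. Without MSCs 3 alone 1 member was lower, and without MSCs 1 or without rTMS-MSCs 3 alone 3 were lower. Members called higher numbered 1 without MSCs 1, without MSCs 4 or without rTMS-MSCs 3, and 4 without rTMS-MSCs 1 or without rTMS-MSCs 4. Over all genes, leaving out each library gave 282 to 1350 higher and 724 to 1846 lower.

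For stimulated stem cells against untreated OGDR cells, 13 of the 29 members fell and Npc2 rose. The lower members are 44.8% of the list, against 16.2% of all genes called lower and 16.2% called higher. The median log2 fold change was -0.14 over the members and 0.01 over all genes. Of the 18 enzymes 8 fell, and of the other 11 members 5 fell. Abca1 at -0.95, Npc1 at -0.51, Hmgcs1 at -0.47, Hsd17b7 at -0.45 and Lss at -0.39 had the lowest log2 fold changes of the 29. Without rTMS-MSCs 3 and MSCs 3 there were 12 lower and 1 higher, Mvd and Fdft1 being gained and Msmo1, Sc5d and Stard4 lost. Over all genes 1984 were lower and 1984 higher in that fit, against 2224 and 2215 with all libraries. This comparison shares its libraries with the other 2, so its values stand beside theirs and are not further evidence for them. Across the 3 comparisons 19 members were called at least once and 10 were called in none. The share of all tested genes called at least once is not given here, so these counts have no background beside them.

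**Figure D1:**
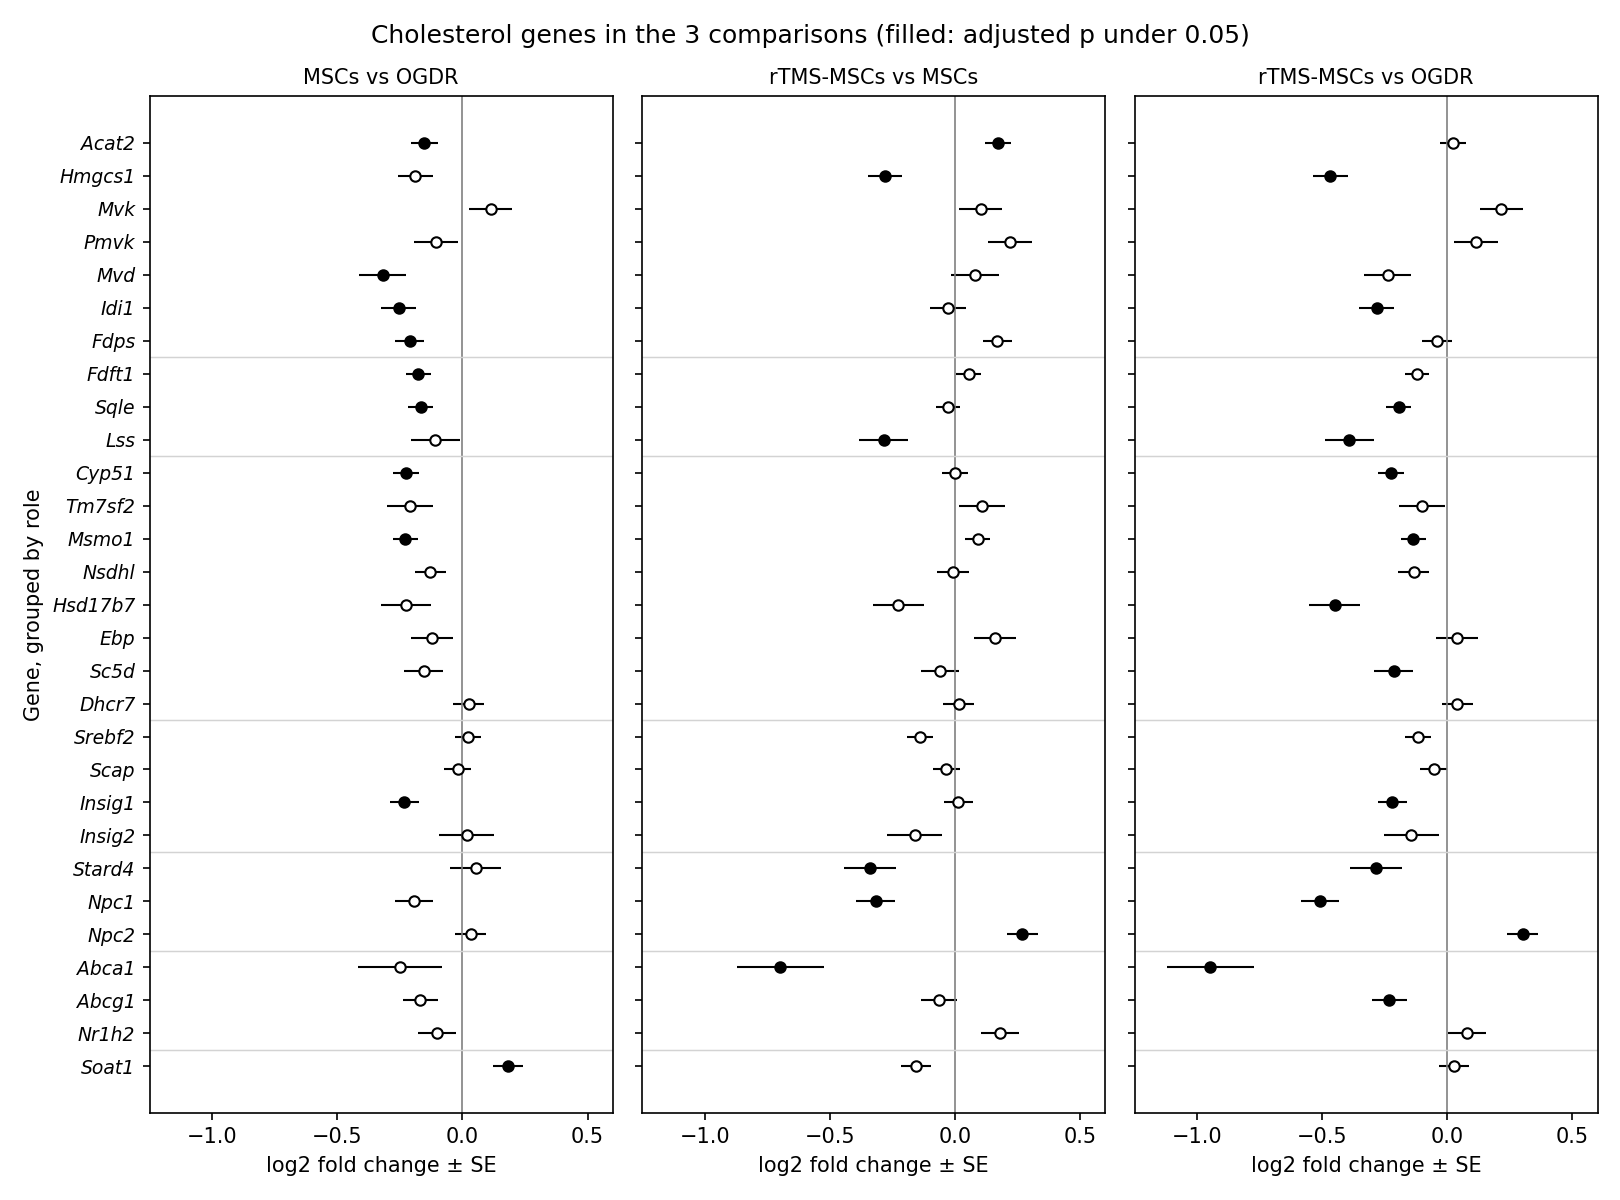
Log2 fold change ± SE of each of the 29 cholesterol genes (rows, grouped by role) in the 3 comparisons (panels), with filled points for adjusted p under 0.05. Most enzymes lie left of 0 in the panels against OGDR, while in rTMS-MSCs against MSCs the values spread to both sides, from -0.70 for Abca1 to 0.27 for Npc2.

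Summed over the 18 enzymes, transcript levels were 3326, 3358, 3356 and 3277.5 CPM in rTMS-MSCs, 3277, 3242.5, 3259 and 3155 CPM in MSCs, and 3489, 3759.5, 3731.5 and 3700.1 CPM in OGDR. Every library of the stem cell groups lay below every OGDR library, and the stem cell groups met at 3277 CPM. Means were 3329 ± 37.5 CPM in rTMS-MSCs, 3233 ± 54.1 in MSCs and 3669.9 ± 123 in OGDR (SD, n = 4 each). The MSCs mean was at -11.9% relative to the OGDR mean, and the rTMS-MSCs mean differed from the MSCs mean by 2.97%. Without TMM scaling that difference was 1.13%, with 3229 to 3343 CPM in rTMS-MSCs and 3159 to 3307 CPM in MSCs, so the groups overlapped. The sum weights genes by their counts, so Cyp51, Fdps, Sqle, Acat2 and Msmo1 make up most of it. It is a description and was not tested.

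**Figure D2:**
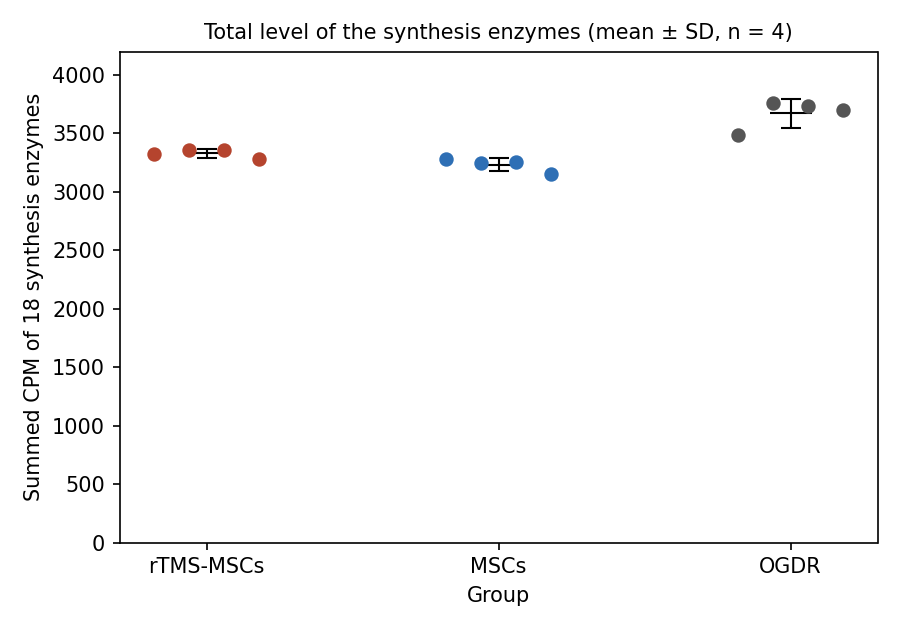
Summed CPM of the 18 synthesis enzymes in each library (points), with mean ± SD per group (bars, n = 4). Both stem cell groups lie between 3155 and 3358 CPM, and the 4 OGDR libraries lie between 3489 and 3759.5 CPM.

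The early enzymes lead from acetyl-CoA to farnesyl diphosphate. Hmgcs1 encodes the cytosolic synthase that makes HMG-CoA, the precursor of mevalonate. It had 170.4, 166, 145 and 169 CPM in rTMS-MSCs, 195, 190.1, 223 and 182 CPM in MSCs, and 203, 232, 226 and 239 CPM in OGDR. All 4 stimulated libraries lay below all 8 others, while MSCs and OGDR overlapped. It fell in rTMS-MSCs with a log2 fold change of -0.28 ± 0.0698 (± SE) against MSCs (adjusted p = 0.0107) and of -0.47 ± 0.0697 against OGDR (adjusted p = 3.43e-05). The call against MSCs was lost without MSCs 3 (-0.21, adjusted p = 0.0607) and without both libraries numbered 3 (-0.17, adjusted p = 0.106). MSCs against OGDR gave -0.19 ± 0.0694 with an adjusted p of 0.0614, and -0.25 with 0.00132 without the libraries numbered 3.

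Acat2 encodes the thiolase that joins acetyl-CoA units at the start of the pathway. It had 405, 393, 419.6 and 407 CPM in rTMS-MSCs, 363, 358, 378 and 341 CPM in MSCs, and 384, 427, 414 and 376 CPM in OGDR. The stimulated libraries all lay above the MSCs libraries, which in turn shared part of their range with OGDR. Acat2 rose in rTMS-MSCs against MSCs with a log2 fold change of 0.17 ± 0.0522 (adjusted p = 0.0275) and fell in MSCs against OGDR with a log2 fold change of -0.15 ± 0.0522 (adjusted p = 0.0442), and rTMS-MSCs against OGDR gave 0.02. The rise was lost without MSCs 1, MSCs 4 or rTMS-MSCs 3 (adjusted p 0.0521 to 0.0696). The fall was lost without any of OGDR 2, OGDR 3, MSCs 1, MSCs 2, MSCs 4, rTMS-MSCs 1 or rTMS-MSCs 2 (adjusted p 0.055 to 0.160).

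Idi1 encodes the isomerase that makes dimethylallyl diphosphate, a building unit of all isoprenoids. It had 100.4, 90.3, 80.8 and 97.7 CPM in rTMS-MSCs, 96.6, 85.7, 93.1 and 101 CPM in MSCs, and 107, 114, 118 and 111 CPM in OGDR. Every OGDR library was above every library with stem cells, and the stem cell groups covered much the same range. Idi1 fell with a log2 fold change of -0.28 ± 0.0703 in rTMS-MSCs against OGDR (adjusted p = 0.00427) and of -0.26 ± 0.0703 in MSCs against OGDR (adjusted p = 0.0125), the call in MSCs being lost without MSCs 2 (adjusted p = 0.0545). The gene overlaps the protein-coding Wdr37 in RefSeq, and the strand setting was not given in the sources used here. In all, 8 of the 29 members are overlapped by another RefSeq gene, mostly a noncoding one. Wdr37 itself had log2 fold changes of 0.06 in rTMS-MSCs and 0.18 in MSCs against OGDR, neither past the threshold.

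Fdps makes farnesyl diphosphate, the branch point to sterols and to prenylated proteins. It had 512, 551, 605 and 505 CPM in rTMS-MSCs, 475, 517, 462 and 479 CPM in MSCs, and 539, 594, 559.5 and 545 CPM in OGDR. MSCs lay wholly below OGDR, and rTMS-MSCs overlapped with both. The fall in MSCs against OGDR was -0.21 ± 0.0588 (adjusted p = 0.0135), lost without OGDR 2 (adjusted p = 0.0581), while rTMS-MSCs against MSCs gave 0.17 ± 0.0588 (adjusted p = 0.0508). The latter was called as higher in some settings, among them upper-quartile factors (adjusted p = 0.0360), the DESeq2 Wald test (adjusted p = 0.0367) and without rTMS-MSCs 4 (adjusted p = 0.0224). Mvd, the decarboxylase that yields isopentenyl diphosphate, ranged over 70.8 to 94.7 CPM in rTMS-MSCs, 61.6 to 84.7 in MSCs and 87.1 to 105 in OGDR. It fell in MSCs against OGDR with a log2 fold change of -0.32 ± 0.0945 (adjusted p = 0.0202), and the call was lost without OGDR 2 (adjusted p = 0.0796) and without MSCs 4 (adjusted p = 0.0784). In rTMS-MSCs against OGDR Mvd gave -0.24 ± 0.0943 (adjusted p = 0.0580). That difference was called as lower in some settings, among them limma with voom (adjusted p = 0.0491) and without rTMS-MSCs 3 (adjusted p = 0.00479). Mvk, the mevalonate kinase gene, and Pmvk, the phosphomevalonate kinase gene, were not called in any comparison in the main edgeR model. Without rTMS-MSCs 4, Pmvk was called as higher in rTMS-MSCs against MSCs (0.27, adjusted p = 0.0410). Mvk averaged 78.4 ± 8.65 CPM in rTMS-MSCs, 73.1 ± 7.42 in MSCs and 67.5 ± 4.97 in OGDR, with an adjusted p of 0.0596 for rTMS-MSCs against OGDR. That difference was called as higher without MSCs 4 (adjusted p = 0.0420) and without rTMS-MSCs 4 (adjusted p = 0.0232). With all libraries it was called with no filter (adjusted p = 0.0446) and with the replicate block (adjusted p = 0.0316).

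The next enzymes join farnesyl units into squalene and close the rings. Fdft1, the squalene synthase that commits farnesyl diphosphate to sterols, had 223, 234, 234 and 221 CPM in rTMS-MSCs, 222, 225, 206 and 225 CPM in MSCs, and 251, 253, 248 and 239.6 CPM in OGDR. All OGDR libraries lay above all libraries with stem cells. Fdft1 fell in MSCs against OGDR with a log2 fold change of -0.18 ± 0.0495 (adjusted p = 0.0144, and 0.0579 without MSCs 3). In rTMS-MSCs against OGDR it gave -0.12 ± 0.0495 (adjusted p = 0.0671), called as lower by the DESeq2 Wald test (adjusted p = 0.0315). Sqle, the squalene epoxidase that limits the later pathway, ranged over 405 to 429.8 CPM in rTMS-MSCs, 416 to 434 in MSCs and 449 to 504 in OGDR. It fell with a log2 fold change of -0.20 ± 0.0498 in rTMS-MSCs (adjusted p = 0.00514) and of -0.17 ± 0.0498 in MSCs (adjusted p = 0.0203) against OGDR. The call in MSCs was lost without OGDR 3, OGDR 4 or MSCs 2 (adjusted p 0.0601 to 0.0859).

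Lss, the cyclase that forms lanosterol, ranged over 50.1 to 68.5 CPM in rTMS-MSCs, 59.4 to 79.3 in MSCs and 73.4 to 82.1 in OGDR. Its fall in rTMS-MSCs against OGDR was -0.39 ± 0.0979 (adjusted p = 0.00434), with no overlap between the groups. Against MSCs it was called at -0.28 ± 0.0982 with an adjusted p of 0.0495, and the groups overlapped. That call held in 6 of 21 settings and was lost on leaving out any of OGDR 1 to 4, MSCs 1 to 3, rTMS-MSCs 3 or rTMS-MSCs 4 (adjusted p 0.0541 to 0.153).

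From lanosterol on, 8 enzymes remove methyl groups and shift double bonds. Cyp51, the lanosterol demethylase, had 589, 571, 529.8 and 562 CPM in rTMS-MSCs, 577, 553, 561 and 557 CPM in MSCs, and 597, 667, 672 and 695 CPM in OGDR. OGDR lay above both other groups in every library, and the libraries of MSCs all fell within the range of rTMS-MSCs. The log2 fold change was -0.23 ± 0.0519 in rTMS-MSCs (adjusted p = 0.00244) and -0.23 ± 0.0519 in MSCs (adjusted p = 0.00324) against OGDR, and 0.00 ± 0.0519 between rTMS-MSCs and MSCs. Msmo1, the methylsterol oxidase that follows, had 324, 319, 302 and 313 CPM in rTMS-MSCs, 303, 286, 292 and 299.8 CPM in MSCs, and 322, 340.1, 358 and 363 CPM in OGDR. MSCs lay wholly below OGDR, while library rTMS-MSCs 1 reached into the OGDR range. Msmo1 fell with a log2 fold change of -0.23 ± 0.0504 in MSCs against OGDR (adjusted p = 0.00239). The fall of -0.14 ± 0.0503 in rTMS-MSCs against OGDR (adjusted p = 0.0422) was called in 9 of 21 settings. It was lost without OGDR 2, 3 or 4, MSCs 1 or 3, or rTMS-MSCs 2, 3 or 4 (adjusted p 0.0515 to 0.124).

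Hsd17b7, a ketosteroid reductase of the same stretch, had 16.9, 18.9, 19.7 and 20.9 CPM in rTMS-MSCs, 22.9, 21.5, 24.3 and 20.6 CPM in MSCs, and 22.2, 29.7, 26.5 and 25.9 CPM in OGDR. Stimulated libraries were all below OGDR, with MSCs in between and touching both. The fall in rTMS-MSCs against OGDR was -0.45 ± 0.10 (adjusted p = 0.00182), and -0.23 for rTMS-MSCs against MSCs (adjusted p = 0.120) and -0.22 for MSCs against OGDR (adjusted p = 0.122) did not pass. Sc5d, a sterol desaturase, ranged over 63.2 to 72.8 CPM in rTMS-MSCs, 63.6 to 81.8 in MSCs and 73.2 to 85.6 in OGDR. It fell in rTMS-MSCs against OGDR with a log2 fold change of -0.21 ± 0.077 (adjusted p = 0.0377), a call lost without OGDR 2, 3 or 4 or rTMS-MSCs 1 or 3 (adjusted p 0.0644 to 0.123). Tm7sf2 and Dhcr7, both sterol reductases, Nsdhl, a dehydrogenase, and Ebp, an isomerase, were called in no comparison. Dhcr7 averaged 88.8 ± 3.00 CPM in rTMS-MSCs, 87.9 ± 5.08 in MSCs and 86.3 ± 5.37 in OGDR, means that lay within their spread of each other. Nsdhl averaged 75.5 ± 3.76 CPM in rTMS-MSCs, 75.9 ± 4.36 in MSCs and 82.9 ± 3.85 in OGDR.

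**Figure D3:**
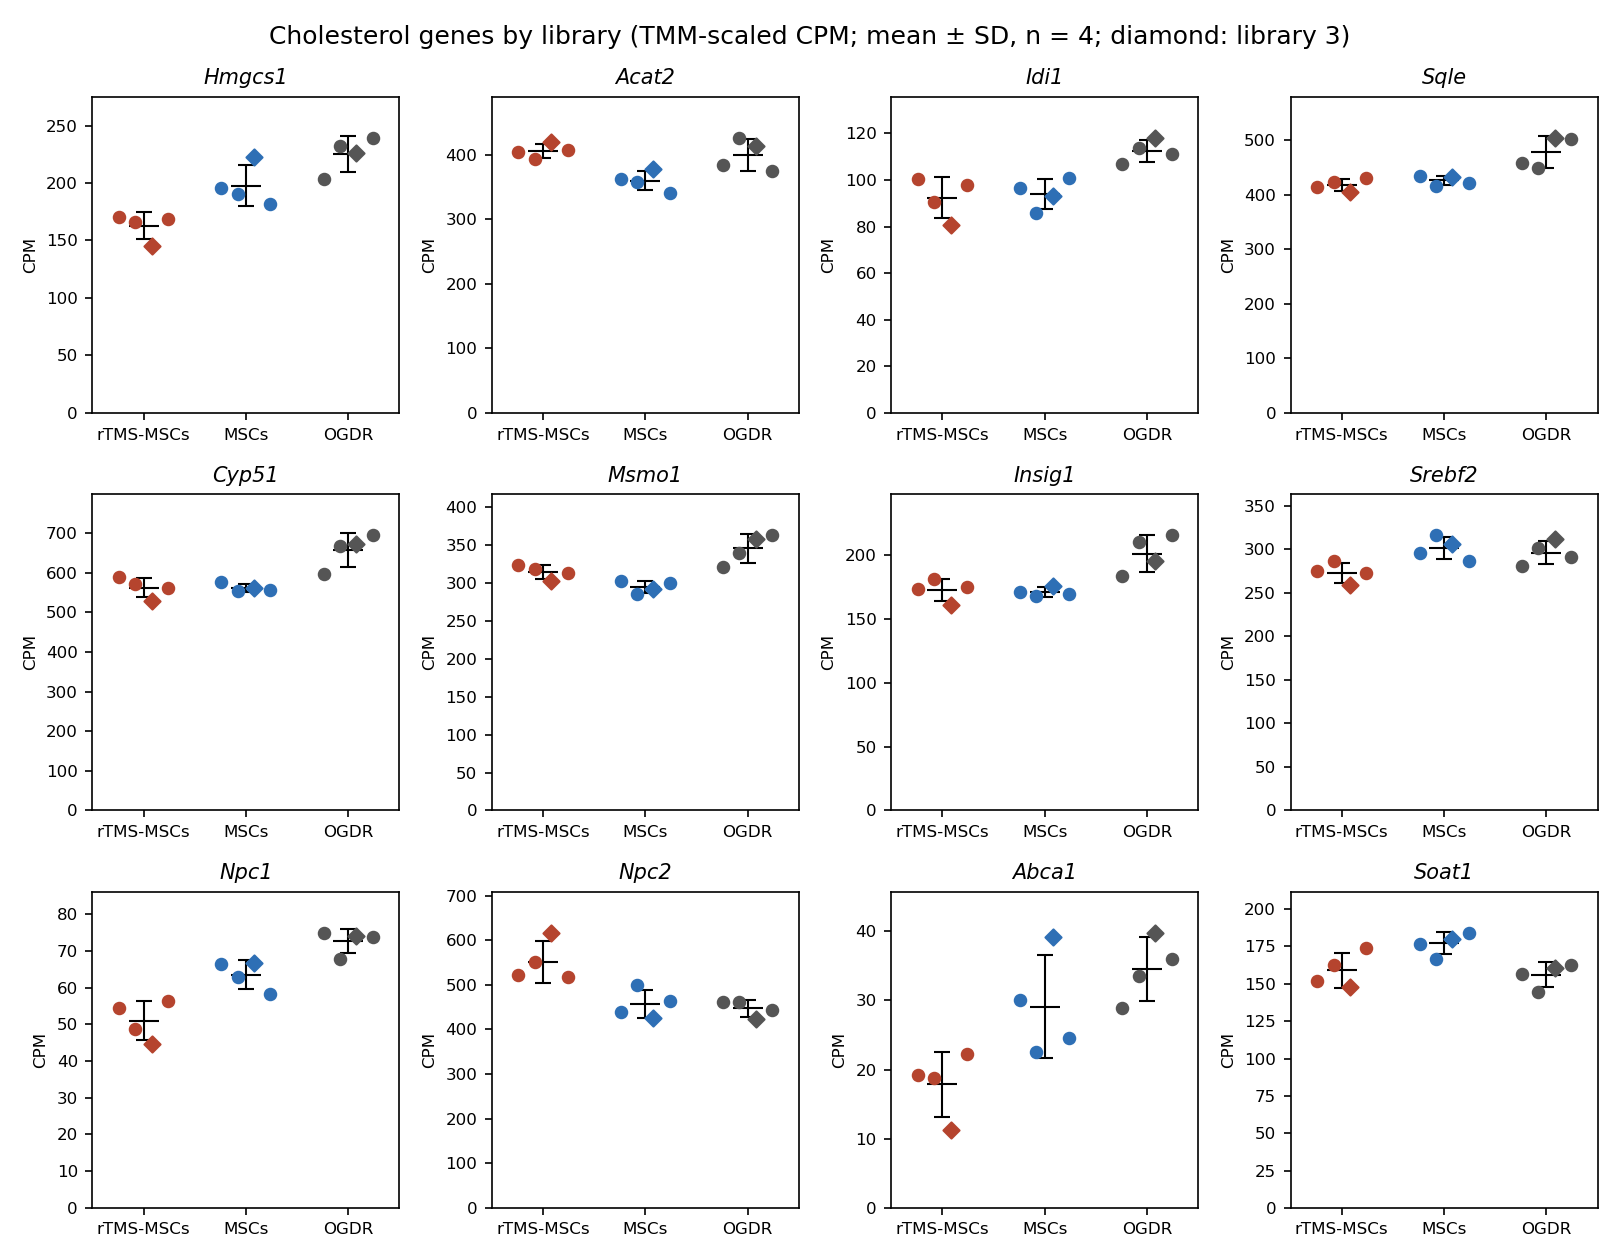
CPM of 12 cholesterol genes in each library (points; diamonds are library 3 of each group), with mean ± SD per group (bars, n = 4). Idi1, Cyp51 and Insig1 are lower in both stem cell groups than in OGDR, and Hmgcs1, Npc1 and Abca1 are lowest in rTMS-MSCs, where Npc2 is highest at 516 to 616 CPM.

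Of the genes that control SREBP2, Insig1 was called in the main edgeR model and Srebf2, Scap and Insig2 were not. Srebf2 had 275, 287, 259 and 272 CPM in rTMS-MSCs, 295, 316, 305 and 287 CPM in MSCs, and 281, 301, 311 and 290.5 CPM in OGDR. MSCs and OGDR covered the same levels (log2 fold change 0.02 ± 0.052, adjusted p = 0.804), and rTMS-MSCs lay just under the lowest MSCs library. The rTMS-MSCs differences of -0.14 ± 0.052 against MSCs (adjusted p = 0.0647) and -0.12 ± 0.052 against OGDR (adjusted p = 0.0932) did not pass the threshold. Against MSCs, Srebf2 was called as lower by the DESeq2 Wald test (adjusted p = 0.0420) and without MSCs 4 (adjusted p = 0.0494). Mir33, a microRNA gene, lies within Srebf2 in RefSeq.

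Insig1 is itself a target of SREBP2. It had 174, 181, 161 and 175 CPM in rTMS-MSCs, 171, 168, 176 and 169.9 CPM in MSCs, and 183, 211, 196 and 216 CPM in OGDR. Its groups split as those of Cyp51 did, with all OGDR libraries on top and the stem cell groups together. It fell with a log2 fold change of -0.22 ± 0.0579 in rTMS-MSCs (adjusted p = 0.00645) and of -0.23 ± 0.0579 in MSCs (adjusted p = 0.00599) against OGDR, and differed by 0.01 ± 0.058 between rTMS-MSCs and MSCs. Insig2, the other retention protein, had 9.31, 10.0, 10.2 and 10.3 CPM in rTMS-MSCs, 10.7, 11.2, 11.6 and 11.0 CPM in MSCs, and 10.6, 10.6, 12.7 and 10.0 CPM in OGDR. Stimulated libraries lay just below the MSCs libraries and overlapped with OGDR. The log2 fold change of rTMS-MSCs was -0.16 ± 0.11 against MSCs (adjusted p = 0.320) and -0.14 ± 0.11 against OGDR (adjusted p = 0.341). Scap averaged 138 ± 4.77 CPM in rTMS-MSCs, 141 ± 5.34 in MSCs and 143 ± 6.02 in OGDR.

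Cholesterol taken up with lipoproteins leaves the late endosome through NPC2, which binds it in the lumen, and NPC1, which passes it through the membrane. Loss of either protein causes Niemann-Pick disease type C. Npc1 had 54.4, 48.6, 44.6 and 56.4 CPM in rTMS-MSCs, 66.4, 62.8, 66.6 and 58.4 CPM in MSCs, and 74.9, 67.7, 74.2 and 73.8 CPM in OGDR. The 3 groups formed steps without overlap, the stimulated libraries lowest. Npc1 fell in rTMS-MSCs with a log2 fold change of -0.32 ± 0.0768 against MSCs (adjusted p = 0.00891) and of -0.51 ± 0.0766 against OGDR (adjusted p = 3.74e-05), while MSCs against OGDR gave -0.19 ± 0.076 (adjusted p = 0.0812). Without both libraries numbered 3, rTMS-MSCs against MSCs gave -0.24 (adjusted p = 0.0726) and MSCs against OGDR -0.22 (adjusted p = 0.0284). Rmc1, a protein-coding gene, overlaps Npc1 in RefSeq. It had 0.05 for rTMS-MSCs against MSCs and -0.12 for rTMS-MSCs against OGDR. For MSCs against OGDR it had -0.16 (adjusted p = 0.104), near the value of Npc1 there. None of these passed the threshold.

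Npc2 went the other way. It had 521, 549.9, 616 and 516 CPM in rTMS-MSCs, 439, 499, 426 and 464 CPM in MSCs, and 461, 461, 423 and 443 CPM in OGDR. All stimulated libraries were above all others, and MSCs and OGDR overlapped (log2 fold change 0.03). Npc2 rose in rTMS-MSCs with a log2 fold change of 0.27 ± 0.0618 against MSCs (adjusted p = 0.00673) and of 0.30 ± 0.0618 against OGDR (adjusted p = 0.000907). The rise against MSCs was 0.18 with an adjusted p of 0.0544 without both libraries numbered 3. Stard4, which ferries cholesterol between membranes in the cytosol, had 16.7, 16.4, 17.2 and 20.3 CPM in rTMS-MSCs, 22.1, 19.3, 24.3 and 23.7 CPM in MSCs, and 21.9, 18.5, 23.0 and 22.7 CPM in OGDR. Library rTMS-MSCs 4 was higher than 1 library of each other group, and the remaining stimulated libraries were lower than all. Stard4 fell in rTMS-MSCs with a log2 fold change of -0.34 ± 0.104 against MSCs (adjusted p = 0.0301) and of -0.29 ± 0.104 against OGDR (adjusted p = 0.0396). The call against MSCs was lost without MSCs 1, 3 or 4 or rTMS-MSCs 1, 2 or 3 (adjusted p 0.0595 to 0.109). Against OGDR it was lost without OGDR 1, 3 or 4, MSCs 1 or rTMS-MSCs 1, 2 or 3 (adjusted p 0.0515 to 0.11).

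Among the export genes, Abca1, which hands cholesterol to lipid-poor apolipoproteins, had 19.2, 18.8, 11.2 and 22.3 CPM in rTMS-MSCs, 30.1, 22.5, 39.1 and 24.5 CPM in MSCs, and 28.9, 33.5, 39.8 and 36.0 CPM in OGDR. Each stimulated library was below each of the other 8, the gap to MSCs being 22.3 against 22.5 CPM. The lowest stimulated and the highest MSCs value came from the libraries numbered 3. Abca1 fell in rTMS-MSCs with a log2 fold change of -0.95 ± 0.173 against OGDR (adjusted p = 0.00032), averaging 17.9 ± 4.69 CPM in rTMS-MSCs and 34.5 ± 4.57 CPM in OGDR (SD, n = 4 each). Against MSCs it fell with a log2 fold change of -0.70 ± 0.175 (adjusted p = 0.0108), which was -0.52 without MSCs 3 (adjusted p = 0.0605) and -0.36 without both libraries numbered 3 (adjusted p = 0.0812). MSCs against OGDR gave -0.25 ± 0.169 (adjusted p = 0.333) with all libraries and -0.42 (adjusted p = 0.00458) without those libraries. Abca1 also varied most within groups, with a coefficient of variation of 26.2% in rTMS-MSCs, 25.6% in MSCs and 13.2% in OGDR.

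Abcg1, which loads cholesterol onto mature lipoproteins, ranged over 44.4 to 55.4 CPM in rTMS-MSCs, 50.1 to 55.8 in MSCs and 58.2 to 59.5 in OGDR. It fell in rTMS-MSCs against OGDR with a log2 fold change of -0.23 ± 0.0714 (adjusted p = 0.0172), lost without rTMS-MSCs 2 (adjusted p = 0.0774). MSCs against OGDR did not overlap either and gave -0.17 ± 0.0713 (adjusted p = 0.106). Nr1h2, the liver X receptor gene, averaged 101 ± 10.4 CPM in rTMS-MSCs, 89.6 ± 6.10 in MSCs and 96.1 ± 7.04 in OGDR. It was not called in the main edgeR model. Without rTMS-MSCs 1 it was called as higher in rTMS-MSCs against MSCs (0.24, adjusted p = 0.0394). Soat1, whose enzyme turns cholesterol into esters for storage, ranged over 148 to 174 CPM in rTMS-MSCs, 167 to 184 in MSCs and 144 to 163 in OGDR. It rose in MSCs against OGDR with a log2 fold change of 0.18 ± 0.0604 (adjusted p = 0.0382), and rTMS-MSCs against MSCs gave -0.15 (adjusted p = 0.0789). The latter was called as lower without rTMS-MSCs 4 (-0.20, adjusted p = 0.0238). The rise was lost without OGDR 1, 2 or 3, MSCs 1, 3 or 4 or rTMS-MSCs 2 (adjusted p 0.0502 to 0.137).

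**Figure D4:**
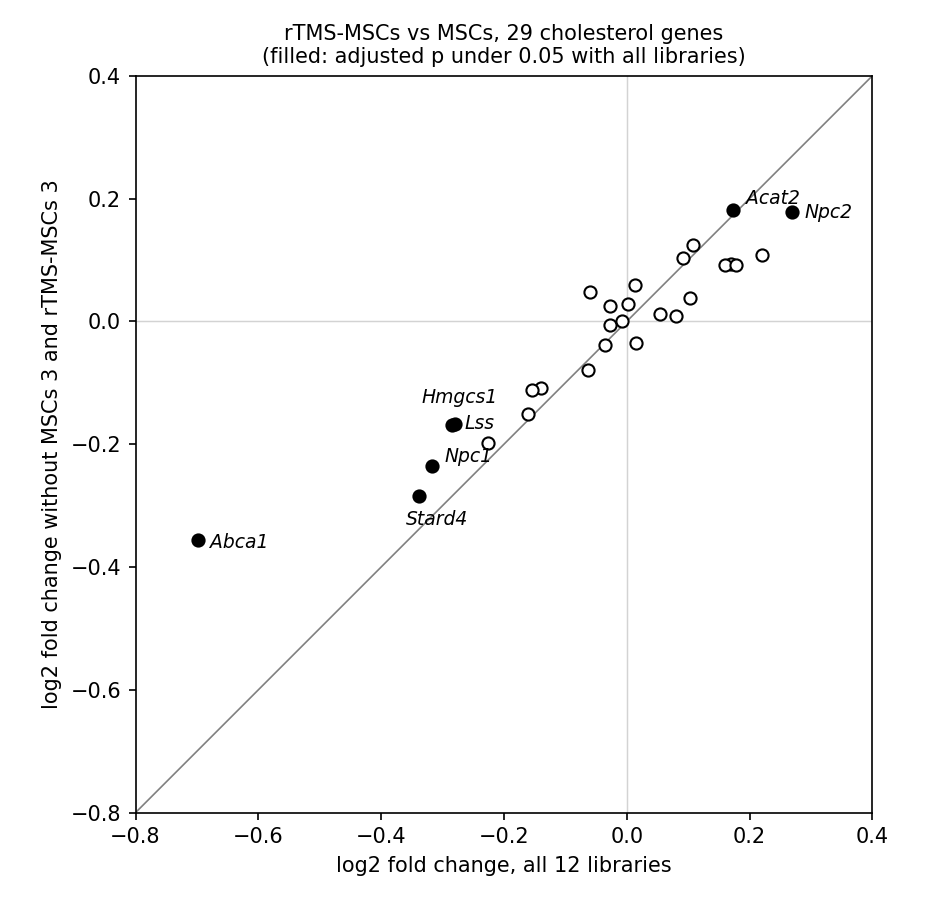
Log2 fold change of the 29 genes in rTMS-MSCs against MSCs with all 12 libraries (horizontal axis) and without MSCs 3 and rTMS-MSCs 3 (vertical axis), with equality as a line and filled points for adjusted p under 0.05 with all libraries. The called genes keep their side of 0 and, apart from Acat2, lie nearer to 0 on the vertical axis, Abca1 at -0.36 against -0.70. The 2 libraries left out are the outermost of their groups along the split between them, so this shift follows in part from that choice.

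A wider list of 61 genes of the same biology that are not among the 29 was chosen by function, of which 59 were in the table and 53 were tested. In MSCs against OGDR 11 of the 53 rose (20.8%, against 11.6% of all genes) and 2 fell (3.77%, against 8.63%), with a median log2 fold change of 0.04. In rTMS-MSCs against MSCs 2 rose (3.77%, against 7.14% of all genes) and 6 fell (11.3%, against 10.9%), with a median of -0.00. In rTMS-MSCs against OGDR 12 rose (22.6%, against 16.2% of all genes) and 9 fell (17.0%, against 16.2%), with a median of 0.04. The shares lower in both rTMS-MSCs comparisons were thus near those of all genes. Without both libraries numbered 3 the counts were 12 higher and 3 lower in MSCs against OGDR, 1 and 3 in rTMS-MSCs against MSCs, and 11 and 6 in rTMS-MSCs against OGDR. Over all genes these were, in the same order, 1751 and 1385, 154 and 523, and 1984 and 1984. Of the 8 tested genes of SREBP processing and degradation, 0 were called in MSCs against OGDR, 1 fell in rTMS-MSCs against MSCs and 2 fell in rTMS-MSCs against OGDR, and none rose. The caveolar coat gene Cav1 had the lowest p against OGDR in both stem cell groups, at 1485 ± 100.5 CPM in rTMS-MSCs, 1466 ± 49.8 in MSCs and 931 ± 22.4 in OGDR. Its log2 fold change was 0.67 in rTMS-MSCs (adjusted p = 2.9e-09) and 0.66 in MSCs (adjusted p = 4.68e-09) against OGDR. Vldlr, a lipoprotein receptor, fell to 28.1 CPM in rTMS-MSCs and 30.5 CPM in MSCs, against 45.6 CPM in OGDR. Its log2 fold change against OGDR was -0.70 in rTMS-MSCs (adjusted p = 9.57e-06) and -0.58 in MSCs (adjusted p = 9.57e-05). Dbi, which binds acyl-CoA, averaged 497 CPM in rTMS-MSCs, 405 in MSCs and 304 in OGDR and was called in all 3 comparisons.

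Other genes of that list with the lowest p values rose in MSCs against OGDR, namely the transporters Abca7 (0.50) and Abca2 (0.41) and the endocytic receptor Lrp1 (0.39). Lrp1 averaged 822 ± 43.3 CPM in rTMS-MSCs, 1035.5 ± 80.7 in MSCs and 791 ± 25.4 in OGDR, so that it fell in rTMS-MSCs against MSCs with a log2 fold change of -0.33 (adjusted p = 0.00142). Rxra, the partner receptor of the liver X receptors, fell to 14.3 ± 1.78 CPM in rTMS-MSCs, against 21.0 ± 1.85 CPM in MSCs (-0.55, adjusted p = 0.00291). Also lower in rTMS-MSCs than in MSCs were the oxysterol-binding relatives Osbpl8 (-0.56, adjusted p = 0.00615) and Osbpl11 (-0.40, adjusted p = 0.00535), and Erlin2 (-0.35, adjusted p = 0.0130), which acts in the breakdown of sterol-regulated membrane proteins. Without both libraries numbered 3, the calls of Osbpl11 (-0.29, adjusted p = 0.0521) and Erlin2 (-0.24, adjusted p = 0.114) in this comparison were lost, while those of Lrp1 (-0.26, adjusted p = 0.00346), Rxra (-0.45, adjusted p = 0.0202), Osbpl8 (-0.40, adjusted p = 0.0403) and Dbi (0.19, adjusted p = 0.0395) were kept. Erlin2 was also lost without MSCs 1 (adjusted p = 0.0532) and without MSCs 3 (adjusted p = 0.0606). In rTMS-MSCs against OGDR the lipid droplet coat gene Plin2 rose (0.32, adjusted p = 3.43e-05), as did Abca7 (0.41, adjusted p = 0.000118), and Nceh1, a cholesteryl ester hydrolase, fell (-0.50, adjusted p = 9.88e-05).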

How the data were processed

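RNA of 12 libraries was sequenced, 4 per group, after mRNA capture with oligo(dT) and random priming, per the labels' protocols. Per the submitters' processing notes, the tools were HISAT2 2.1.0, HTSeq 0.11.2 and DESeq2 1.40.1, with the rat build mRatBN7.2. The deposited table gives raw counts per gene and library, with HTSeq summary lines that were left out; reads on no feature were 51.7% to 52.7% of the table's total.

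Of 20776 genes with a count, 13692 passed edgeR's filterByExpr, set to a minimum count of 10 and a minimum total of 15. The 12 libraries entered a single quasi-likelihood model in edgeR 4.0.16 (R 4.3.3), with TMM scaling, group means and no block for replicate numbers. Group contrasts were 2-sided, and the Benjamini-Hochberg adjustment ran over every tested gene with a threshold of 0.05. The common biological coefficient of variation was 0.0937. CPM used TMM-scaled library sizes, and components used log2 CPM with a prior count of 2. Lengths were not used, so levels are not compared between genes. No pair of libraries of a group agreed within sampling noise (chi-square per degree of freedom 4.02 to 24.9). The script was tested on simulated data with known fold changes, larger than most of those called among the members. How well changes as small as these are recovered was therefore not measured.

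The members and lists were chosen with earlier results of these data known. Values per library are given for called members with the 6 smallest p per comparison and for Srebf2, Insig1 and Insig2; of the wider list, up to 6 genes per comparison with the smallest p are named. Marker lists were used for the check of the cell type, and 1 listed chromaffin marker is not reported here. Alternatives were median-ratio and upper-quartile scaling, DESeq2 1.42.0, limma 3.58.1 with voom, models without the other group's libraries (8 libraries), a replicate block, no filter, a filter at 1 CPM in 4 libraries, and leaving out each library. The removal of MSCs 3 and rTMS-MSCs 3 together was added after the data were seen, as were all alternatives for the wider list.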

Additional observations from a re-analysis of the deposited data

Results flagged for a closer look

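In 3 of 90 sets of 4 libraries (each member, and the enzyme sum, in each group), a library lay far from the other 3 relative to the range. Chance flags about 1 in 20 such sets, here 4.5 of 90. Lss was 59.4 CPM in MSCs 4, against 78.0 to 79.3 CPM in the other MSCs libraries. Lss was also low in OGDR 4, at 73.4 CPM against 81.4 to 82.1 CPM. Npc1 was 67.7 CPM in OGDR 2, against 73.8 to 74.9 CPM in the other OGDR libraries.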

How the results depend on the processing

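The calls were small and many lay near the threshold, so counts of calls moved by a few genes. In MSCs against OGDR the count of members higher was 0 with upper-quartile factors, where over all genes 1446 were higher and 1423 lower. On leaving out each library it was 0 to 1, and the count lower was 6 to 11. Over all genes these fits gave 1341 to 1885 higher and 899 to 1566 lower. In rTMS-MSCs against MSCs the count higher was 1 in the fit of the 8 compared libraries, with 568 higher and 1190 lower over all genes. On leaving out each library it was 1 to 4, and the count lower was 1 to 5. Over all genes these fits gave 282 to 1350 higher and 724 to 1846 lower. Both libraries numbered 3 left out gave 1 higher and 0 lower, against 154 and 523 over all genes. In rTMS-MSCs against OGDR the count higher was 2 with no filter and 2 with the replicate block. Over all genes these gave 2155 and 2100 higher, and 2210 and 2085 lower. On leaving out each library the count higher was 1 to 2, and the count lower was 10 to 14. Over all genes these fits gave 1759 to 2294 higher and 1702 to 2389 lower. The mean enzyme sum without TMM scaling was 3288 CPM in rTMS-MSCs, 3251.5 CPM in MSCs and 3689 CPM in OGDR. The DESeq2 Wald test called 1 higher and 9 lower in MSCs against OGDR, 3 and 6 in rTMS-MSCs against MSCs, and 1 and 14 in rTMS-MSCs against OGDR. Over all genes it called, in the same order, 1728 and 1369, 1321 and 1768 (of 12099 genes), and 2334 and 2381. The alternatives for the wider list were added after the data were seen. In rTMS-MSCs against MSCs its count higher was 4 with upper-quartile factors, 4 by the DESeq2 Wald test, 1 to 4 on leaving out each library and 1 without both libraries numbered 3, and its count lower was 4 to 10, with 10 without rTMS-MSCs 4, and 3 without both libraries numbered 3. In rTMS-MSCs against OGDR its count lower was 5 to 11, with 5 without OGDR 3. Over all genes upper-quartile factors gave 1210 higher and 1385 lower in rTMS-MSCs against MSCs, and the other settings gave the counts above. For the effects of depth, the lowest group mean of a member was 9.94 CPM. Apart from the construction of fits with fewer libraries, the cause of these shifts was not tested.

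Replicate numbers were shared between groups, but samples with the same number did not deviate together: correlations of their deviations ran from 0.029 to 0.128 for MSCs and OGDR, -0.205 to 0.032 for rTMS-MSCs and MSCs, and -0.174 to 0.060 for rTMS-MSCs and OGDR. With the replicate block the counts were 1 higher and 9 lower in MSCs against OGDR, 2 and 5 in rTMS-MSCs against MSCs, and 2 and 12 in rTMS-MSCs against OGDR. Over all genes they were, in the same order, 1488 and 1089, 726 and 1269, and 2100 and 2085. In that last comparison the block added Mvk (0.21, adjusted p = 0.0316) and Mvd (-0.24, adjusted p = 0.0264) to the calls, and Msmo1 (-0.14, adjusted p = 0.0634) and Sc5d (-0.21, adjusted p = 0.0560) did not pass.

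No called member changed sign under any alternative run. Members near 0 and not called did. In MSCs against OGDR, Insig2 was -0.0056 with upper-quartile factors and -0.0039 without both libraries numbered 3. In rTMS-MSCs against MSCs, Nsdhl was 0.0074 with upper-quartile factors, and Cyp51 was -0.0035 with no filter and -0.0026 in the fit of the 8 compared libraries. Without both libraries numbered 3, Idi1 was 0.026, Sc5d 0.047 and Dhcr7 -0.035 in that comparison, and Ebp was -0.038 in rTMS-MSCs against OGDR. On leaving out each library, the log2 fold changes in MSCs against OGDR ran from -0.011 to 0.065 for Dhcr7, -0.00084 to 0.049 for Srebf2, -0.039 to 0.0071 for Scap, -0.023 to 0.093 for Insig2, -0.013 to 0.115 for Stard4 and -0.013 to 0.064 for Npc2. In rTMS-MSCs against MSCs they ran from -0.0090 to 0.136 for Mvd, -0.071 to 0.032 for Idi1, -0.021 to 0.031 for Cyp51, -0.046 to 0.021 for Nsdhl, -0.112 to 0.013 for Sc5d, -0.0088 to 0.052 for Dhcr7 and -0.011 to 0.048 for Insig1. In rTMS-MSCs against OGDR they ran from -0.037 to 0.091 for Ebp, -0.0092 to 0.054 for Acat2 and -0.018 to 0.062 for Soat1.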
